A study of Rattus norvegicus with 3 samples.

Results

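The genes described here are 10 genes that act at the passage from G1 into S phase: the D-type cyclins Ccnd1, Ccnd2 and Ccnd3, their kinases Cdk4 and Cdk6, the E-type cyclins Ccne1 and Ccne2, their kinase Cdk2, and the Cip/Kip inhibitors Cdkn1b and Cdkn1c. They were chosen by symbol, and all 10 were found among the 18425 genes of the table. Retinas came from wild-type Sprague Dawley rat pups. Eyes were given 1 µl into the vitreous at postnatal day 1 (P1), and the retinas were collected at P4. The injection was citrate buffer, saline, or 10 µg of STZ (streptozotocin, a nitrosourea linked to a sugar that alkylates DNA), which was dissolved in citrate buffer, so that buffer is the vehicle control. Each condition is a single library, and the number of pups or eyes behind it is not given in the sources used here, so the spread between animals is unknown and no p-value can be given. For examinations of the eye, the study treated opposite eyes of 1 pup with STZ and buffer. Whether the buffer and STZ libraries share pups is not given in the sources used here.

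D-type cyclins bind Cdk4 and Cdk6 in G1 and begin the phosphorylation of the retinoblastoma protein, which releases E2F transcription factors. E2F factors in turn activate genes for S phase, the E-type cyclins among them, and cyclin E with Cdk2 completes the step. The Cip/Kip proteins p21, p27 and p57 restrain these kinases. In the rodent retina, cyclin D1 is known as the main D-type cyclin of progenitor cells, and p27 and p57 as inhibitors that act as progenitors leave the cycle.

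The libraries held between 21977876 and 22031287 estimated reads. FPKM, a fragment count scaled by transcript length and library size, is the only scale on which levels of different genes are compared below. All 12 measured progenitor markers and all 8 photoreceptor markers had reads in each library. The 10 genes had no fractional read count in any library. Added together, the 10 genes held 45330 reads of the buffer library, 45261 of the saline library and 31821 of the STZ library. These were 0.206%, 0.206% and 0.144% of all reads. Ccnd1 carried most of this sum. The other 9 genes held 0.0674%, 0.0661% and 0.0599%, a ratio of 0.888 for STZ over buffer and 0.906 for STZ over saline.

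The 10 genes covered a wide range of levels. In the buffer library Ccnd1 was highest at an FPKM of 384, followed by Cdk4 at 202 and Cdkn1b at 140. The other 7 genes lay between 20.7 for Cdk2 and 2.04 for Ccnd2. In buffer the 95% Poisson intervals of Ccnd3 overlapped those of Cdk6, next above it, and of Ccne1, next below it. Overlap of separate intervals does not settle whether a pair can be ordered, and the pairs were not compared directly. The intervals of Cdk6 and Ccne1 did not overlap. Saline had the same first 6 places as buffer. In STZ the first 3 places were also the same, but Cdkn1c at 20.6 stood above Cdk2 at 16.0, the reverse of both controls. Ccnd1 and Cdk4 were 384 and 202 FPKM in buffer, but 234 and 206 in STZ.

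**Figure D1:**
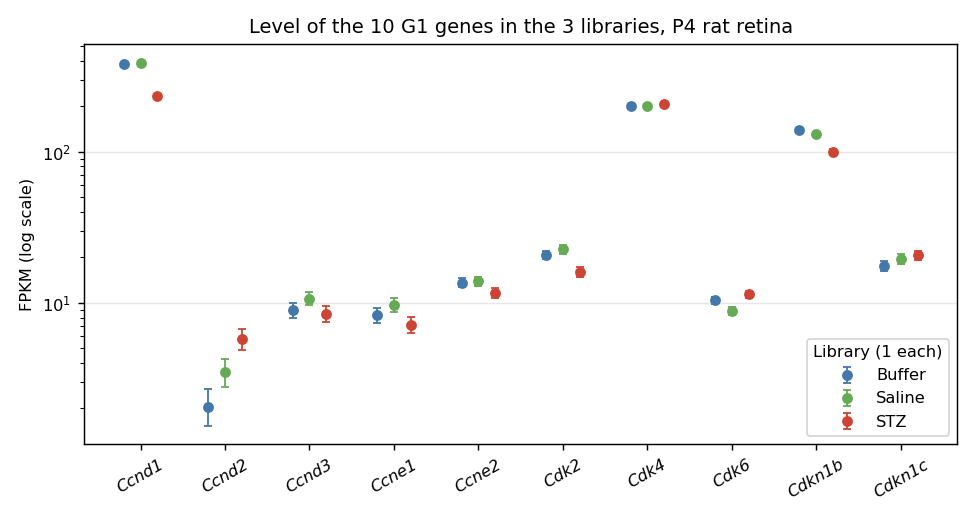
FPKM (log scale) of each of the 10 genes in the buffer, saline and STZ libraries, 1 point per library, with bars for the 95% Poisson counting interval. Ccnd1 is at 384 and 387 in the controls and at 234 in STZ, and Ccnd2 has a different level in each library, from 2.04 to 5.75.

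Ccnd1, which encodes cyclin D1, had the lowest fold of the 10 genes in STZ relative to either control. Its FPKM values were 384 (buffer), 387 (saline) and 234 (STZ), and it had 30498, 30728 and 18626 reads. Both controls lay close together, and STZ stood apart below them. Fold changes were taken as (FPKM + 1)/(FPKM + 1), with thresholds of 0.62 and -0.62 on the log2 scale, the lower of which is a fold of 0.65. For Ccnd1 the fold change was 0.611 with buffer as the control and 0.605 with saline, both past the lower threshold. The ratio of its shares of the library totals was 0.610 against buffer, with an exact Clopper-Pearson 95% interval of 0.599 to 0.621. It was 0.605 against saline (0.594 to 0.616), and 1.01 for saline against buffer (0.992 to 1.02). These intervals cover counting error only. Of the 5679 genes with a mean of at least 1000 reads, 17 had a lower ratio than Ccnd1 in STZ against buffer and 28 in STZ against saline. For 95% of these genes the ratio lay between 0.743 and 1.30 in STZ against buffer, and between 0.857 and 1.16 in saline against buffer. By FPKM, Ccnd1 ranked 164th of all genes in buffer, 163rd in saline and 285th in STZ.

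The 12 measured progenitor markers had FPKM sums of 975 (buffer), 978 (saline) and 820 (STZ). Their median log2 fold was -0.28 in STZ against buffer and -0.32 against saline, and 11 of the 12 had folds below 1 against buffer, as did 43.2% of all genes with a mean of at least 10 reads. The marker above 1 was Pax6, which had the largest FPKM of the 12, at 264 (buffer), 271 (saline) and 269 (STZ). Mki67, whose product marks cycling cells, had an FPKM of 66.5, 66.5 and 45.6 in buffer, saline and STZ. It had the lowest fold against buffer of the 18 mitosis genes described below. Of these 18, 11 had folds below 1 and 7 above, with a median log2 fold of -0.06. The log2 fold of Ccnd1 was -0.71 against buffer and -0.72 against saline, below both medians of the progenitor markers. Lhx2 was the only one of the 12 markers with a lower fold than Ccnd1, at 0.603 against buffer and 0.568 against saline, and was named after its values were seen. The 8 markers listed as endothelial summed to 125, 134 and 88.0, with a median log2 fold of -0.49 against buffer. Most of that sum was Kdr, and without it the other 7 summed to 19.0, 16.6 and 7.80. The part of these cell types in the level of Ccnd1 was not tested. In whole-retina RNA, fewer cells of a type and less RNA per cell cannot be told apart.

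Ccnd2, which encodes cyclin D2, was the only one of the 10 genes past the upper threshold, and only in STZ against buffer. The 53 reads in buffer, 90 in saline and 150 in STZ gave FPKM values of 2.04, 3.47 and 5.75. The 3 libraries did not form a pair of like controls and an outlying STZ: saline lay between the others. The fold change was 2.22 against buffer, 1.51 against saline, short of the threshold, and 1.47 for saline against buffer. The count ratios were 2.83 (2.05 to 3.94), 1.66 (1.27 to 2.18) and 1.70 (1.20 to 2.43). Of the 3078 genes with a mean of 10 to 100 reads, 210 had a larger ratio than Ccnd2 in STZ against buffer. For 95% of such genes this ratio lay between 0.333 and 5.66, a range that held Ccnd2. Its mean of 97.7 reads was near the upper end of that depth. For 95% of the genes with a mean of 100 to 1000 reads the ratio lay between 0.668 and 1.65, and Ccnd2 was above that range. In the same 3 libraries, the 12 microglia markers summed to an FPKM of 72.4, 88.6 and 213, and the 13 lens markers to 19.2, 50.8 and 321. The 8 ciliary and iris epithelium markers summed to 60.0, 213 and 58.1. Most of each sum was Aldh1a1, at 46.6, 168 and 46.5. No marker in these lists was at 0 in any library, and their part in the level of Ccnd2 was not tested.

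For Ccnd3, which encodes cyclin D3, the 311 reads in buffer, 370 in saline and 287 in STZ gave FPKM values of 8.94, 10.7 and 8.47. Saline was the highest library, and buffer and STZ lay closer together. The count ratio was 0.921 (0.782 to 1.09) against buffer, 0.774 (0.661 to 0.905) against saline and 1.19 (1.02 to 1.39) for saline against buffer. The interval left out 1 against saline, but it also did so between the controls.

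Ccnd1 made up nearly all of the D-type cyclin message, and the family as a whole was lower in STZ. Summed over the 3 genes, FPKM was 395 (buffer), 401 (saline) and 248 (STZ), a ratio of 0.629 against buffer and 0.618 against saline. Ccnd1 held 97.2%, 96.5% and 94.3% of that sum. Ccnd2 held 0.517%, 0.865% and 2.32%, and Ccnd3 2.26%, 2.66% and 3.41%. The larger shares of Ccnd2 and Ccnd3 in STZ were shares of a smaller sum. Ccnd2 itself was also higher there, at an FPKM of 5.75 beside 2.04 in buffer and 3.47 in saline. Ccnd3 was not, at 8.47 beside 8.94 and 10.7. The levels per length rest on the transcript models behind the table. The reads and FPKM imply a length of 3613 bases for Ccnd1 in buffer but 1181 bases for Ccnd2. In human and mouse, Ccnd2 transcripts are known for a long 3′ untranslated region, and whether reads outside the model were left uncounted was not tested.

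**Figure D2:**
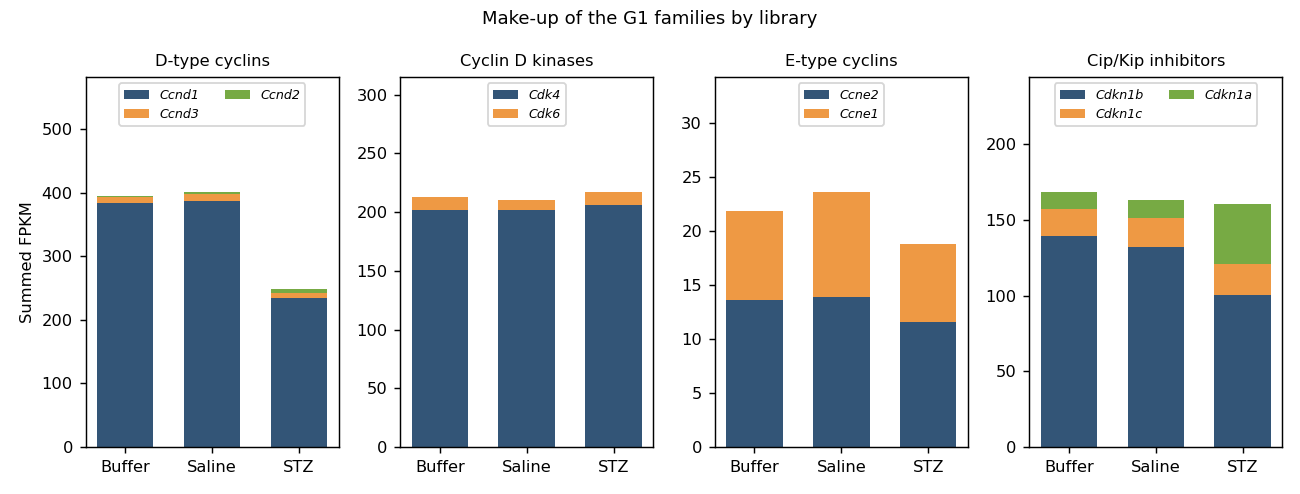
Stacked bars of the summed FPKM of each family by library, from 0 and with 1 library per bar; each panel has its own axis. The D-type cyclin sum is 395 and 401 in the controls and 248 in STZ, the Cdk4 and Cdk6 sum lies between 210 and 217, and Cdkn1a takes up a larger part of the Cip/Kip sum in STZ.

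Cdk4 and Cdk6 encode the kinases that D-type cyclins activate, and neither passed a threshold in any comparison. Cdk4 had FPKM values of 202, 201 and 206 in the buffer, saline and STZ libraries (4719, 4701 and 4839 reads). The 3 libraries were nearly level, and its count ratio was 1.02 (0.983 to 1.07) against buffer and 1.03 (0.986 to 1.07) against saline. Cdk6 had an FPKM of 10.4, 8.79 and 11.4, from 1309, 1058 and 1383 reads. Here saline was the low library. The count ratio of Cdk6 was 0.809 (0.745 to 0.878) for saline against buffer, and 48 of the 5679 genes at that depth had a lower one. Against buffer, STZ was at 1.05 (0.977 to 1.14), and against saline at 1.30 (1.20 to 1.41). Cdk4 held 95.1%, 95.8% and 94.8% of the summed FPKM of the pair. The D-type cyclin sum was 1.86 times the Cdk4 and Cdk6 sum in buffer, 1.91 times in saline and 1.14 times in STZ.

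**Figure D3:**
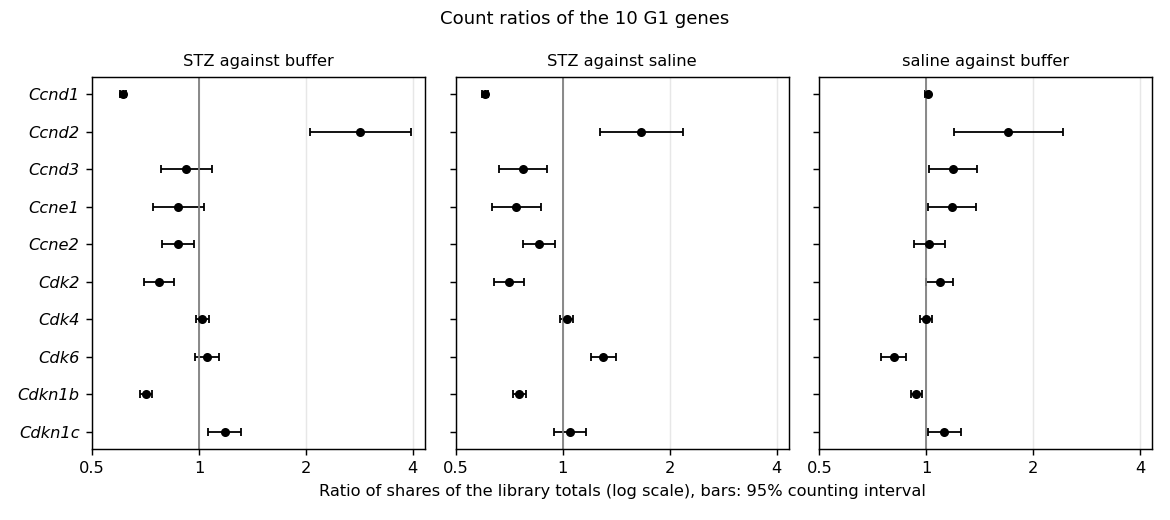
Count ratios (log scale) of the 10 genes, with a panel for STZ over buffer, for STZ over saline and for saline over buffer; points are ratios and bars are 95% counting intervals, with 1 library per condition. The points of Ccnd1, Ccnd3, Ccne1, Ccne2, Cdk2 and Cdkn1b lie below 1 in both STZ panels. The bars of Ccnd3 and Ccne1 reach past 1 for STZ over buffer. Cdk4 lies close to 1 in all panels, and Ccnd2 lies above 1 in all panels.

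The bases before the transcription start are shown for Cdk4, the gene whose level differed least between the libraries, and for Cdk2 and Cdkn1b, both lower in STZ. They are the 250 bases upstream of the annotated start, 5′ to 3′ on the strand of the gene, from RefSeq on the assembly GRCr8, in which 5 of the 10 genes were matched by symbol and identifier. Capitals mark the E-box CACGTG, the letters bound by Myc and related factors, in Cdk4. In Cdk2 and Cdkn1b they mark the CCAAT box (CCAAT) and the GC box (GGGCGG), both searched on both strands. The Cdk4 stretch lies at chr7:64771203-64771452 on the plus strand, that of Cdk2 at chr7:1721879-1722128 on the minus strand, and that of Cdkn1b at chr4:169491254-169491503 on the plus strand.
Cdk4: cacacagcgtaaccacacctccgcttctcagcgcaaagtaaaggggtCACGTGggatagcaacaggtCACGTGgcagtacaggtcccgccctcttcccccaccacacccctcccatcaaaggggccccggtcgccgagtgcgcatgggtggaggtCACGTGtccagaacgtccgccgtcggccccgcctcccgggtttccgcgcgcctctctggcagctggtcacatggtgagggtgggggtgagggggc
Cdk2: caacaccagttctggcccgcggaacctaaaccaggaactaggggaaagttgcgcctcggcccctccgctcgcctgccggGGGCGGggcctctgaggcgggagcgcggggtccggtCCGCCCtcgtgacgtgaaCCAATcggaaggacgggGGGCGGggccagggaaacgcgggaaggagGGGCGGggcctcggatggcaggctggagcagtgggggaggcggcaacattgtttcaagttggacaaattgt
Cdkn1b: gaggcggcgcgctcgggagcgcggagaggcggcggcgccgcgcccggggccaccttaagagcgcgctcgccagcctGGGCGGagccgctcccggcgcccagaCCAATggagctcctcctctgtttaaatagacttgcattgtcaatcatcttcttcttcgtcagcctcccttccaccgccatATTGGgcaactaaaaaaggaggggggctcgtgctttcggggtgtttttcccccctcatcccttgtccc

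The Cdk4 stretch held 3 E-boxes, starting 203, 183 and 95 bases before the start, and 17 of the 33469 promoter stretches of this length in the table (0.0508%) held at least 3. An E-box occurred in 5.59% of all stretches, and in none of the other 4 matched genes, which were Cdk2, Cdkn1b, Ccnd3 and Ccne1. The Cdk2 stretch held 1 CCAAT box and 4 GC boxes, and the Cdkn1b stretch held 2 CCAAT boxes and 1 GC box. At least 1 CCAAT box occurred in 34.0% of all stretches, and at least 1 GC box in 30.5%. None of the marked motifs overlapped another. The Cdk4 stretch also held 1 GC box, left in lower case. A CRE half-site (TGACG, both strands), searched as well and not marked, occurred in 18.2% of all stretches and once each in those of Cdk2, Cdkn1b and Ccnd3. A match of letters says nothing of binding in these retinas.

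The E-type cyclins were slightly lower in STZ than in the controls, without passing a threshold. With 309 reads in buffer, 365 in saline and 271 in STZ, Ccne1 was at FPKM values of 8.25, 9.71 and 7.19. STZ was lowest, but the controls also differed from each other, with a count ratio of 1.18 (1.01 to 1.38) for saline against buffer. The ratio of Ccne1 in STZ was 0.875 (0.741 to 1.03) against buffer and 0.741 (0.631 to 0.869) against saline. Ccne2 had an FPKM of 13.6, 13.9 and 11.6, from 782, 797 and 685 reads. Its controls lay together, with a ratio of 1.02 (0.923 to 1.13), and STZ was at 0.874 (0.788 to 0.970) against buffer and 0.857 (0.773 to 0.951) against saline. Of the 6125 genes with a mean of 100 to 1000 reads, 899 had a lower ratio than Ccne2 in STZ against buffer. Ccne1 held 37.8%, 41.1% and 38.3% of the summed FPKM of the pair.

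Cdk2, which encodes the kinase that cyclin E activates, had 939 reads in buffer, 1023 in saline and 725 in STZ, or FPKM values of 20.7, 22.6 and 16.0. STZ was below both controls, but the folds of 0.784 (buffer) and 0.722 (saline) did not pass 0.65. The count ratio of Cdk2 was 0.771 (0.699 to 0.850) against buffer and 0.707 (0.642 to 0.778) against saline, and 1.09 (0.997 to 1.19) for saline against buffer. Of the 6125 genes at that depth, 365 had a lower ratio in STZ against buffer and 340 in STZ against saline. E-type cyclins and Cdk2 had similar sums per length: their FPKM ratio was 1.06 (buffer), 1.05 (saline) and 1.17 (STZ).

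Cdkn1b, which encodes the inhibitor p27, was lower in STZ, while Cdkn1c, which encodes p57, was not. The FPKM values of Cdkn1b were 140, 132 and 100.4 in the buffer, saline and STZ libraries, where it had 5753, 5391 and 4080 reads. STZ lay well below both controls, which were closer to each other. With buffer as the control its fold was 0.722, and with saline 0.764, neither past the threshold. The count ratio of Cdkn1b was 0.708 (0.680 to 0.737) against buffer, 0.755 (0.725 to 0.786) against saline and 0.938 (0.903 to 0.973) for saline against buffer. Among the 5679 genes of at least 1000 reads, 93 had a lower ratio than Cdkn1b in STZ against buffer and 244 in STZ against saline. Cdkn1c had an FPKM of 17.5, 19.6 and 20.6, from 657, 738 and 775 reads. Buffer was its low library, and the interval for STZ over saline held 1, with a ratio of 1.05 (0.946 to 1.16). Against buffer the ratio of Cdkn1c was 1.18 (1.06 to 1.31) in STZ and 1.12 (1.01 to 1.25) in saline.

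Cdkn1b held 88.9% of the summed Cdkn1b and Cdkn1c FPKM in the buffer library, 87.0% with saline and 83.0% with STZ. The third Cip/Kip gene, Cdkn1a, which encodes p21, had an FPKM of 11.5, 11.9 and 39.5. With it the Cip/Kip sum was 169 (buffer), 163 (saline) and 161 (STZ), so the sum was nearly level while its make-up differed. Cdkn1a held 6.81%, 7.28% and 24.6% of that sum, and Cdkn1b 82.8%, 80.7% and 62.6%. The D-type cyclin sum was 2.34, 2.46 and 1.55 times the sum of the 3 inhibitor genes in buffer, saline and STZ. These are ratios of messages, not of proteins.

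Across the 10 genes, 1 passed the upper threshold in STZ against buffer, where 2.25% of all genes did, and 1 passed the lower, where 1.04% did. Against saline, 0 of the 10 passed the upper threshold, with a background of 2.04%, and 1 passed the lower, with a background of 1.75%. In saline against buffer 0 of the 10 passed either threshold, which 1.00% of all genes did upward and 0.429% downward. The genes past a threshold were Ccnd1 and Ccnd2 only. By counting intervals that leave out 1, 4 of the 10 were below buffer in STZ (15.5% of all genes) and 2 were above (21.7%). Against saline, 6 were below (19.5%) and 2 above (22.1%). Between the controls, 2 of the 10 were below buffer in saline (9.80%) and 4 above (13.3%). The intervals therefore left out 1 also between the controls, for 6 of the 10 genes. Reads may repeat a molecule, so these intervals may be too narrow. The STZ comparisons share the STZ library and are not independent of each other. The median log2 fold of the 10 genes was -0.12 in STZ against buffer, -0.27 against saline and 0.07 in saline against buffer, where all genes with a mean of at least 10 reads had medians of 0.03, 0.01 and 0.02.

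**Figure D4:**
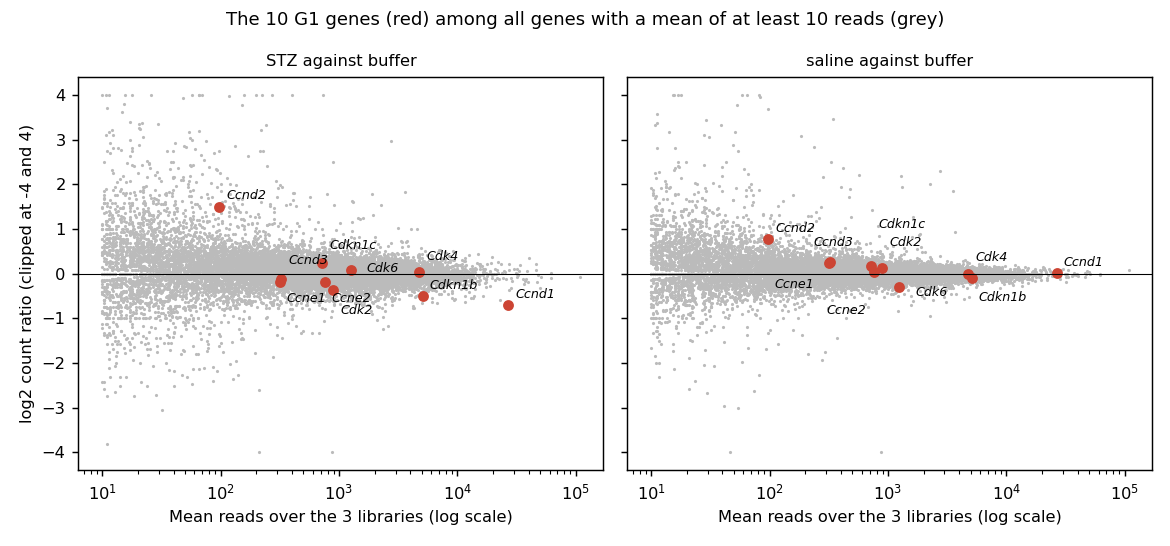
Log2 count ratio against mean reads over the 3 libraries (log scale) for STZ against buffer and saline against buffer; each grey point is a gene with a mean of at least 10 reads and a read in both libraries, clipped at the ends of the scale, and red points are the 10 genes. Ccnd1, at a mean of 26617 reads, sits at -0.71 with STZ, near the lower edge of the grey points. Between the controls it sits at 0.01. Ccnd2, at 97.7 reads, sits in both panels within the range of 95% of the genes with a mean of 10 to 100 reads. It lies above that range for the genes with a mean of 100 to 1000 reads.

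Other genes of the pathway were read from lists written by role. Of the other inhibitors, 3 of 5 had a mean of at least 10 reads. Cdkn1a was the only one of them past a threshold against buffer, with a fold of 3.24. Cdkn2c, which encodes the Cdk4 and Cdk6 inhibitor p18, had FPKM values of 27.1 (buffer), 31.2 (saline) and 17.6 (STZ), with folds of 0.660 against buffer and 0.575 against saline. Cdkn2a had 4, 4 and 1 reads, too few for a ratio, and Cdkn2d was not analysed here. The 5 genes of CDK activation had a median log2 fold of -0.04 in STZ against buffer, with 0 past a threshold. The phosphatase genes Cdc25a and Cdc25b, those of the list with the most reads, had folds of 0.972 and 1.16. The 15 genes for turnover of G1 cyclins and p27 had a median of 0.01, and 0 passed a threshold in any comparison. Gsk3b, whose kinase marks cyclin D1 for destruction, and Skp1, a subunit of the SCF ubiquitin ligases, had the most reads, with folds of 0.882 and 1.01. Skp2, which encodes the subunit that recognises p27 and was named after its values were seen, had 1207, 1462 and 984 reads.

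Of the 13 pocket protein and E2F genes, 10 had folds below 1 in STZ against buffer (43.2% of all genes did) and the median log2 fold was -0.14, with 0 past a threshold. Tfdp2 and Tfdp1, which encode the dimer partners of E2F, had the most reads, with folds of 0.772 and 1.01. Against saline, E2f1 alone of the 13 passed 0.65, with 0.583, and its fold against buffer was 0.674. Among the 18 replication genes 15 had folds below 1 in STZ against buffer, beside the same 43.2% of all genes, with a median log2 fold of -0.26 and 0 past a threshold. Mcm7, a subunit of the replicative helicase, and Rrm1, a subunit of ribonucleotide reductase, had the most reads, with folds of 0.766 and 0.896. Against saline, 1 of the 18 passed, Cdc6 at 0.630. The 18 mitosis genes had a median of -0.06, with 0 past a threshold, and Mki67 and Top2a had folds of 0.690 and 0.957. In saline against buffer the medians of these 3 lists were 0.04, -0.03 and 0.01.

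**Figure D5:**
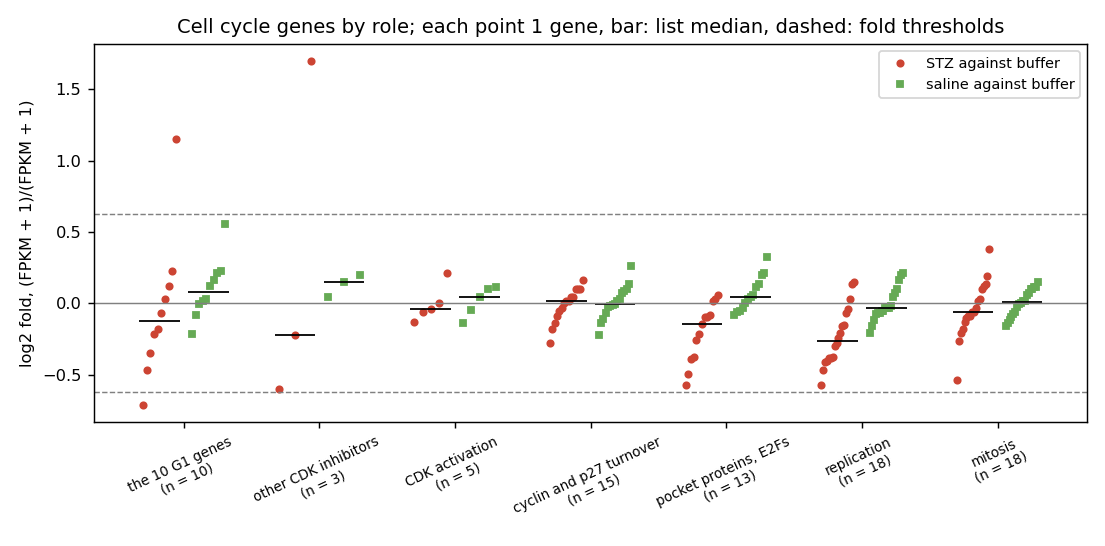
Log2 fold of each gene of the cell cycle lists in STZ against buffer (circles) and saline against buffer (squares), with the list median as a bar and the fold thresholds as dashed lines; genes with a mean under 10 reads are left out. Ccnd1, Ccnd2 and Cdkn1a are the points outside the thresholds in STZ against buffer, and the replication list has a median of -0.26.

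The genes most like Ccnd1 and Ccnd2 over the 3 libraries were found by the distance between pairs of log2 count ratios, STZ against buffer and saline against buffer, among the genes with a mean of at least 1000 reads. Among the nearest to Ccnd1 were Ltbp4, with 1173 (buffer), 1167 (saline) and 733 (STZ) reads, and LOC102553715, with 5781, 5724 and 3644 reads. Their distances on the log2 scale were 0.0378 and 0.0521. Nearest to Ccnd2 were Abca1, the cholesterol exporter, with 926, 1636 and 2211 reads, Apoe, with 961, 1449 and 3305 reads, and A2m, with 1257, 1415 and 3130 reads. Their distances were larger, 0.252, 0.329 and 0.621. The distances take no account of counting error, and the ratio of Ccnd2 in STZ against buffer had an interval of 2.05 to 3.94. The order of the genes nearest to Ccnd2 is therefore not settled. With 3 libraries, likeness of this kind is a description only.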

How the data were processed

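RNA from P4 retinas was sequenced in 3 libraries. Per the labels and the methods, the authors trimmed reads, used TopHat2 for mapping (build rn6 in the submitters' processing notes) and discarded reads with several locations. FPKM came from an R script of their own. The annotation and the tool that assigned reads to genes are not given in the sources used here. The authors deposited FPKM, TPM and estimated counts per gene and library. The deposited counts are not all whole (12.9% to 13.2% of values fractional) and were rounded. Tables per library and for the series held the same values (largest difference 0).

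Folds were (FPKM + 1)/(FPKM + 1), called above 1.54 or below 0.65 over all 18425 genes. Count ratios compare shares of the library totals with exact 95% intervals. The reads carry no molecular identifiers and may repeat a molecule. The intervals cover counting error only and may be too narrow. With 1 library per condition, nothing was tested and no count model was fitted. The calculations were tested on simulated data.

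The members and gene lists were chosen with earlier results of these data known. Genes named were the 10 members, list genes past a threshold against buffer, the 2 genes with the most reads in each list, and the 3 genes nearest to the members with the lowest and the highest fold. Others (Skp2, Lhx2, Kdr, Pax6, Aldh1a1, the lens markers other than crystallins, genes past a threshold against saline only) were chosen after their values were seen. So were the sums without Ccnd1 or Kdr. The cell type lists for endothelial, pericyte, astrocyte, pigment epithelium, blood and early-born neurons gave median log2 folds in STZ against buffer of -0.49, -0.51, -0.64, -0.03, 0.23 and 0.22, and the photoreceptor list 0.37. The blood median rests on only 2 genes, with folds on opposite sides of 1. The pigment epithelium median was 1.06 in saline against buffer and -0.77 in STZ against saline. Rpe65 had 0 reads in buffer. Some items that these rules name are not reported here. Settings varied were the pseudocount (0.1), the thresholds (2 and 0.5), TPM, CPM from the counts, TMM factors (edgeR 4.0.16), size factors (DESeq2 1.42.0, R 4.3.3), calls by counting interval, a minimum mean of 10 counts, and other controls. Python 3.11.15, numpy 2.4.6, pandas 2.3.3, scipy 1.17.1 and matplotlib 3.10.9 were used.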

Additional observations from a re-analysis of the deposited data

How the results depend on the processing

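Ccnd1 and Ccnd2 were the genes of the 10 past the thresholds in STZ against buffer with each scaling tried, with TPM, CPM, a pseudocount of 0.1, the mean of both controls and a minimum of 10 counts. The minimum could not change this, since the lowest mean of the 10 genes was 97.7, for Ccnd2. The TMM and size factors lay between 0.985 and 1.01, so they could move folds only slightly. With thresholds of 2 and 0.5 the number fell from 2 to 1, Ccnd2. By counting intervals it was 6. In STZ against saline the number was 1 (Ccnd1), 2 with a pseudocount of 0.1 or with TPM, where Ccnd2 joined it, 0 with thresholds of 2 and 0.5, and 8 by counting intervals. In saline against buffer it was 0, 1 with a pseudocount of 0.1 or with TPM (Ccnd2), and 6 by counting intervals. The share of all genes past the thresholds in STZ against buffer, 3.29%, became 12.3% with a pseudocount of 0.1, 1.18% with thresholds of 2 and 0.5, and 37.2% by counting intervals. In STZ against saline 3.78% became 13.8%, 1.17% and 41.6% under the same changes, and 5.91% with TPM. In saline against buffer 1.43% became 8.98%, 0.543% and 23.1%, and 2.61% with TPM. The pseudocount of 1 was the same for TPM and FPKM, but TPM values were larger, so it weighed less on them. In buffer, Ccnd2 was at 3.99 TPM and 2.04 FPKM. How many of the calls differed for this reason was not tested.

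Over 70 alternative folds of the 10 genes in STZ, 50 with buffer as the control and the rest with saline or the mean of both, 68 lay on the same side of 1 as the fold against buffer. The exceptions were Cdk4 with TMM factors and with size factors, at a lowest value of 0.989. With buffer as the control, the alternative folds of Ccnd1 lay between 0.594 and 0.610, those of Ccnd2 between 2.17 and 2.73, and those of Cdkn1b between 0.702 and 0.720. With saline as the control, Ccnd2 was at 1.51 and Cdkn1b at 0.764. Ccnd2 is limited by depth, with 53 reads in buffer. No paired analysis was possible because each condition has a single library and none is tied to an animal, and for the same reason no replicate could be left out.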

Other observations

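For Cdk6 the FPKM and the read counts did not give the same ratio. The length implied by reads and FPKM was 5740 bases (buffer), 5477 (saline) and 5507 (STZ). The saline against buffer ratio was 0.848 by FPKM, with no pseudocount, and 0.809 by counts. For Ccnd1 the implied length was 3613, 3611 and 3614 bases, and for Ccne2 2616, 2611 and 2685.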
